A study of Mus musculus with 6 samples.

Results

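The 4 transcription factors of the MyoD family (Myod1, Myf5, Myog and Myf6) and the 4 MEF2 factors (Mef2a, Mef2b, Mef2c and Mef2d) were followed in C2C12 mouse myoblasts with and without 5-azacytidine (5AC). They were read from every array probe set, a group of short oligonucleotides reporting 1 transcript region, that the platform annotation pairs with 1 of these 8 symbols and with no other gene. This gave all 8 of the 8 genes, among 18193 named genes, and 20 of the 45037 probe sets tested: 2 for Myod1, 1 each for Myf5, Myog, Myf6 and Mef2b, 6 for Mef2a, 5 for Mef2c and 3 for Mef2d. C2C12 is an established mouse line that grows as myoblasts and can form muscle fibres. All cells were seeded sparsely, at 1500 per square centimetre, and kept in medium with newborn calf serum, a growth medium, for 1 day before and 3 days during the experiment; 3 arrays carried RNA of untreated cells and 3 that of cells treated with 10 µM 5AC, and both were subconfluent when RNA was taken on day 3. 5AC is a cytidine analogue; once in DNA it binds DNA methyltransferases for good, and methylation is lost in later divisions. Nothing in the labels ties the replicates to separate cultures, and the p-values cover only array-to-array spread, possibly technical.

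The MyoD family are basic helix-loop-helix proteins that pair with ubiquitous E proteins and bind E-boxes in muscle genes. Myod1 and Myf5 are known for committing cells to the muscle fate and are expressed in dividing myoblasts, whereas Myog and Myf6 act in differentiation and in formed fibres. MEF2 proteins bind A/T-rich sites in many of the same muscle genes, often together with the MyoD family. Myod1 itself was first isolated through fibroblasts made myogenic with 5-azacytidine.

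The RefSeq start of Myog, the member with the lowest adjusted p, is shown with its motifs because such motifs are the letters that the 2 families of factors bind. The 250 bases before the start, chr1:134289754-134290003, plus strand of GRCm38.p6, from RefSeq, read 5′ to 3′ with E-boxes (CANNTG) and the core of the MEF2 motif (TANNNNTA) in capitals:
Myog: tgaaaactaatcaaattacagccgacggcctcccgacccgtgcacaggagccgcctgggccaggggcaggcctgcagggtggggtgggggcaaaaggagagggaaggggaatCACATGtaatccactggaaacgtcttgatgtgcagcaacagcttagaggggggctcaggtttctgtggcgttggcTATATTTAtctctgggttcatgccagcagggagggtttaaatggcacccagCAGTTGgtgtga
Both motifs read the same on either strand, and no match overlapped another. The E-boxes lay 138 to 133 and 12 to 7 bases before the start, and the MEF2 core 63 to 56 bases before it. An E-box stood in 66.2% and TANNNNTA in 34.4% of all 32851 RefSeq windows of this length, so neither pattern is rare. TANNNNTA allows any bases in its middle, so this share also counts sites less A/T-rich than those MEF2 binds. The Myog window held 7 CG dinucleotides, the letters that DNA methyltransferases act on, and 57% of all windows held as many or fewer. The other members with an entry had 3 in the window of Myf5, 9 for Mef2b, 21 for Mef2a, 19 for Mef2d and 1 to 6 at the 3 starts of Mef2c. No entry was used for Myod1 and Myf6.

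Within the MyoD family, Myog rose, Myod1 fell, Myf6 rose from below the median of all probe sets and Myf5 did not pass the test. Over all members 3 probe sets were higher in 5AC, 1 was lower and 16 did not pass (limma, Benjamini-Hochberg adjusted p under 0.05 over all probe sets). Across the whole array 8.15% of probe sets were called higher and 8.75% lower, 16.9% in all, against 20% of the members. That share includes many dim probe sets. Of the 15 members with both group means above the median of all probe sets, 2 were higher, 1 was lower and 12 did not pass. Among all probe sets of that kind 29.2% were called, so the members were not called more often than probe sets of like level. With untreated replicate 1 left out 2 members were higher, and with any other array left out 1, Myog. The median log2 change was 0.20 over the 20 members and -0.01 over all probe sets. A log2 change is 5AC minus untreated on log2(intensity + 1), and intensities are the deposited values in arbitrary linear units.

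Myog encodes myogenin, which drives myoblasts into terminal differentiation. Its probe set (1419391_at) read 353, 450.1 and 388 on the untreated arrays and 1107, 1047 and 1148 on the 5AC arrays. Every treated value was more than 2-fold above every untreated one, a gap far wider than the spread within either group. The means were 397 ± 49.1 and 1100.5 ± 51.1 (SD, n = 3 each), and limma gave a log2 change of 1.47 ± 0.11 (SE), adjusted p = 0.00267. With any single array left out the change stayed between 1.39 and 1.57 and the adjusted p between 0.0119 and 0.0211. In RNA from whole cultures, more cells with a transcript and more RNA per cell cannot be told apart.

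Myod1 encodes MyoD, the commitment factor. Its brighter probe set (1418420_at) read 497, 481 and 546 untreated and 341, 337 and 368 in 5AC. The treated arrays were all below the untreated ones. The log2 change was -0.54 ± 0.09 (SE) with limma adjusted p = 0.0147. This call was lost without untreated replicate 1 (adjusted p = 0.0510), 5AC replicate 1 (0.0621) or 5AC replicate 2 (0.0587), while the change itself stayed between -0.58 and -0.49. A second Myod1 probe set (1447675_x_at), whose suffix marks probes that may also match other transcripts, read 58.0, 62.6 and 42.8 untreated and 51.4, 42.5 and 39.6 in 5AC. Its groups overlapped, and the log2 change was -0.28 (95% interval -0.74 to 0.19, limma adjusted p = 0.392).

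Myf5, the other commitment factor, and Myf6, also called MRF4 and known for its expression in formed fibres, are neighbours on chromosome 10 with 0 RefSeq genes between them. Myf5 (1420757_at) read 536, 511 and 478 untreated and 460.1, 454 and 372 in 5AC. The treated values were all lower, by little in 2 of 3 arrays. The log2 change was -0.25 with a 95% interval of -0.54 to 0.04 and limma adjusted p = 0.223, an interval that runs from nearly the fall of Myod1 to no change.

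Myf6 (1419150_at) read 6.49, 18.4 and 15.96 untreated and 42.6, 49.9 and 34.1 in 5AC. The untreated arrays were all under 20.75, the median mean intensity of all probe sets, and the treated arrays all above it. The log2 change was 1.66 ± 0.40 (SE) with limma adjusted p = 0.0498, at the edge of the threshold, and it was 0.99 when 16 instead of 1 was added before the log (adjusted p = 0.00941). The call was lost with quantile normalization (0.0519) and without untreated replicate 2 (0.0686), untreated replicate 3 (0.0874), 5AC replicate 1 (0.136), 5AC replicate 2 (0.144) or 5AC replicate 3 (0.10). Without untreated replicate 1, the array with the lowest value, it held, with a change of 1.24. Both the call and the size of this increase are therefore loosely set. Its groups did not overlap, with 5AC above untreated, as in 18.3% of all probe sets.

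**Figure D1:**
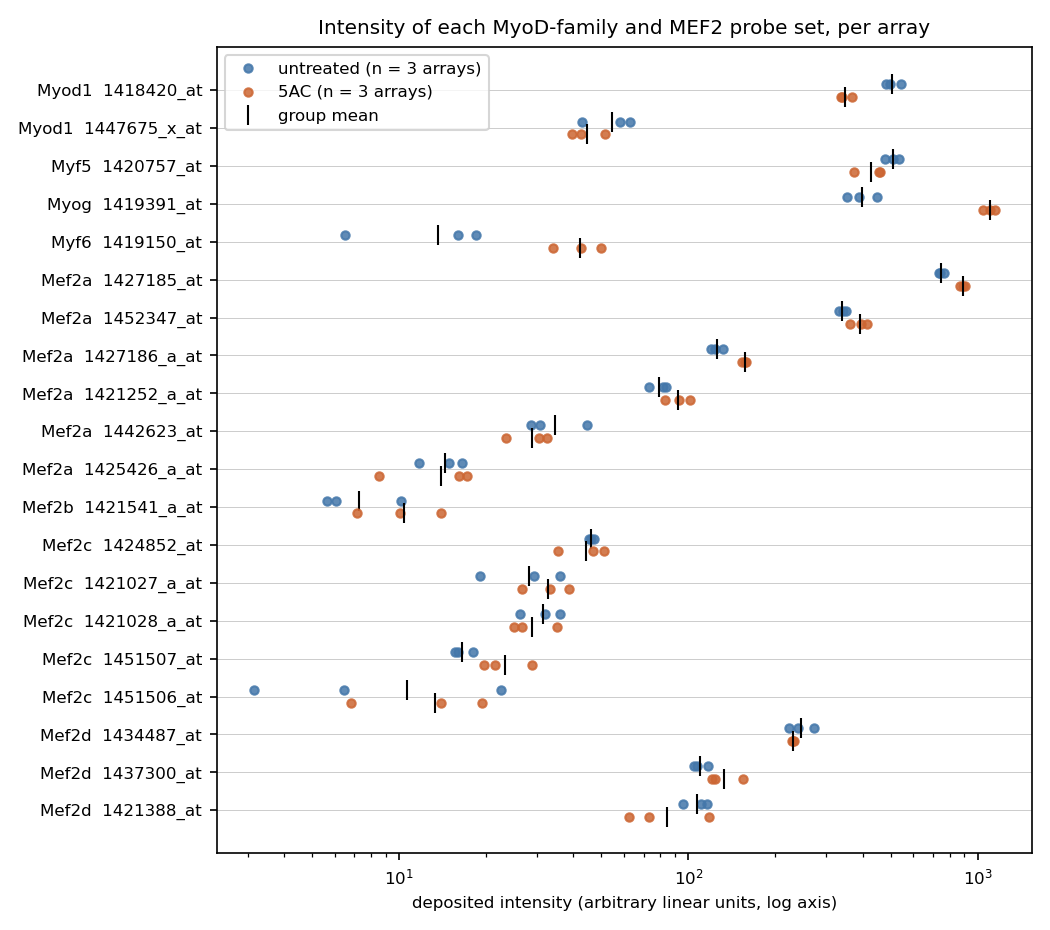
Deposited intensity (log axis) of the 20 probe sets of the MyoD family and MEF2 genes on each of the 6 arrays, untreated in blue and 5AC in orange, with a black tick at each group mean. The 3 treated Myog values sit between 1047 and 1148, all above the untreated ones, the treated values of the brighter Myod1 probe set sit below theirs, and most MEF2 groups overlap.

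Of the 15 MEF2 probe sets 1 was higher, 0 were lower and 14 did not pass in limma, and 3 were higher and 0 lower at an unadjusted p under 0.05, beside 15.0% and 15.2% of all probe sets. Their median log2 change was 0.21. In 5 of the 15 every treated value was above every untreated value, and in 0 every treated value was below. The 5 include the 3 Mef2a probe sets that share 1 sequence record, so the counts and medians here are not of separate transcripts. Over all members the groups did not overlap in 9 of 20 probe sets, 45%, beside 36.8% of all probe sets. The treated values were above in 7 (18.3% of all probe sets) and below in 2 (18.5% of all probe sets).

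Mef2a, a MEF2 factor found in many tissues, had 1 of 6 probe sets called. The brightest (1427185_at) read 734, 766 and 739 untreated and 905, 869 and 889 in 5AC. The groups stood apart by more than their own spread, though the step was small, with a log2 change of 0.25 ± 0.07 (SE) and limma adjusted p = 0.0602. It passed when only 1 probe set a gene was tested (adjusted p = 0.0192), with 16 added before the log (0.0245), with an intensity trend (0.000720), with quantile normalization (0.0369) and among brighter probe sets alone (0.00834), but not with median centring (0.0903) or array weights (0.0590), nor without any 1 of the 6 arrays (0.123 to 0.169).

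Another Mef2a probe set (1427186_a_at) read 120, 124 and 132 untreated and 159, 157 and 153 in 5AC. It was the one MEF2 probe set called, at a log2 change of 0.32 ± 0.07 (SE) and limma adjusted p = 0.0403. The call was lost without any 1 of the 6 arrays, with adjusted p from 0.0586 without untreated replicate 3 to 0.126 without 5AC replicate 1, while the change stayed between 0.29 and 0.36. One more (1452347_at) read 350.1, 342 and 331 untreated and 396, 362 and 416 in 5AC, without overlap, at 0.20 (95% interval -0.01 to 0.40). These 3 probe sets were annotated with the same sequence record, so they are not separate evidence. A probe set with a record of its own (1421252_a_at) gave 0.21 (95% interval -0.06 to 0.48), with 1 treated value, 83.3, inside the untreated range of 72.9 to 83.3. The remaining 2 Mef2a probe sets, at group means of 28.7 to 34.7 and 13.9 to 14.3, had changes of -0.25 and -0.09 with overlapping groups.

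Mef2c, a MEF2 factor known from heart and skeletal muscle, had group means from 10.7 to 46.2 on its 5 probe sets. Of these, 3 had both group means above the median of all probe sets. The brightest (1424852_at) read 46.1, 47.0 and 45.4 untreated and 46.9, 35.3 and 50.9 in 5AC. The untreated values lay inside the treated range, and the log2 change was -0.07 (95% interval -0.45 to 0.31). A second probe set (1451507_at) did not overlap between groups, at 15.9, 18.0 and 15.6 untreated and 28.7, 21.4 and 19.6 in 5AC. Its log2 change was 0.45 with limma adjusted p = 0.134, and 0.26 with 16 added. The other 3 Mef2c probe sets had changes from -0.12 to 0.57 with overlapping groups, and 3 of the 5 were annotated with 1 shared record.

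Mef2d, a broadly expressed MEF2 factor, had 3 probe sets that pointed different ways. Its brightest (1434487_at) read 272, 239.9 and 222 untreated and 233, 227 and 230 in 5AC. The treated values lay inside the untreated range, at a log2 change of -0.08 (95% interval -0.33 to 0.16). A second (1437300_at) read 107, 117 and 104 untreated and 124, 121 and 155 in 5AC, without overlap, at 0.27 (limma adjusted p = 0.221). The last (1421388_at) read 95.5, 111 and 116 untreated and 73.0, 62.5 and 118 in 5AC. One treated array was at the untreated level and the other two below it, and the change of -0.39 had a 95% interval of -1.05 to 0.26. The difference between these probe sets was not tested.

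Mef2b had 1 probe set of its own (1421541_a_at), at 5.63, 10.1 and 6.06 untreated and 7.12, 10.1 and 13.9 in 5AC. All 6 values were below the median of all probe sets, and the groups overlapped (log2 change 0.45, or 0.18 with 16 added). A brighter probe set is annotated with both Borcs8 and Mef2b and is not counted among the members. It had means of 217 ± 21.7 untreated and 218 ± 16.4 in 5AC (SD, n = 3 each).

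**Figure D2:**
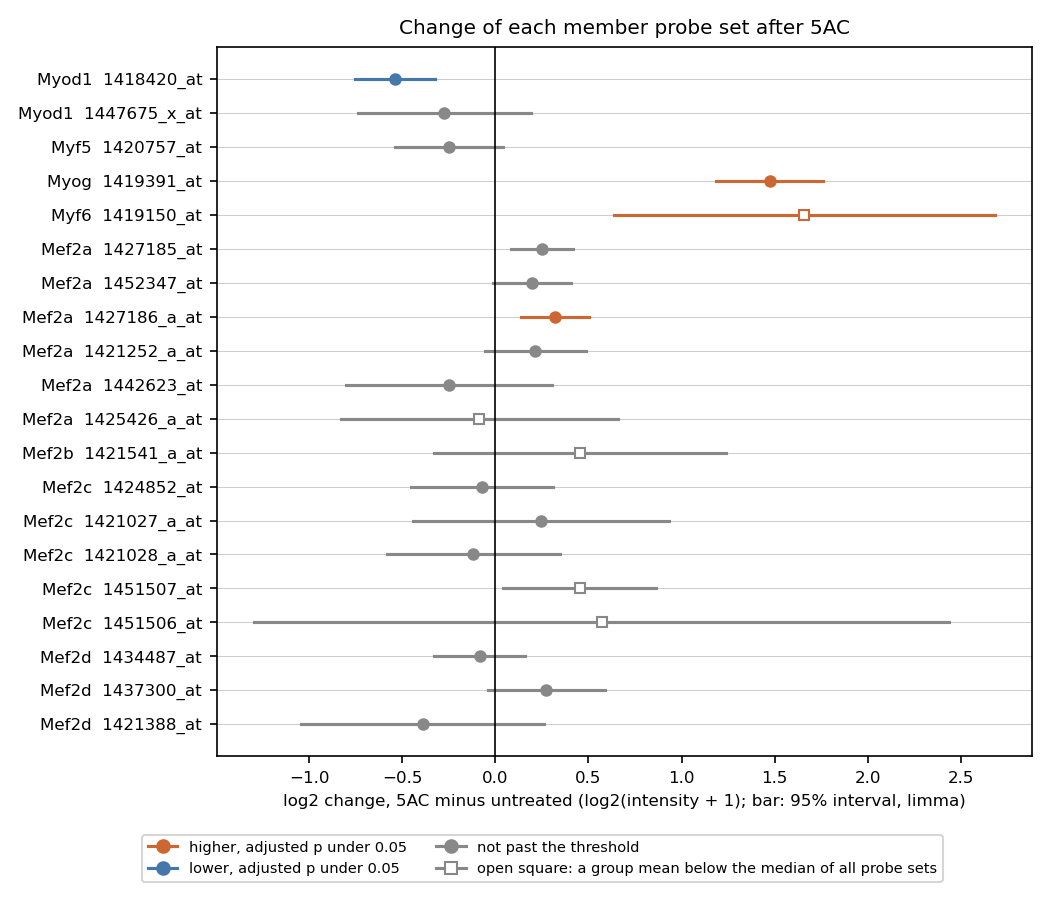
Log2 change of each member probe set, 5AC minus untreated, with its 95% interval from limma; orange and blue mark calls in either direction, grey none, and open squares a group mean below the median of all probe sets. Myog at 1.47 stands clear of 0 and Myod1 lies at -0.54. The intervals of Myf6, Mef2b and the dimmest Mef2c probe set (1451506_at) are wide.

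The genes closest to the called members over the 6 arrays were found by the root-mean-square distance between log2 values, each gene centred on its own mean. The 11324 candidates were genes whose mean over all 6 arrays was above the median, so a high level in 1 group could be enough. Nearest to Myog were Mymk, at a distance of 0.067, which encodes the fusion protein myomaker, Myl1, at 0.071, a myosin light chain of fast fibres, and Sirt5, at 0.073, a mitochondrial deacylase. Their log2 changes were 1.57, 1.48 and 1.51. Nearest to Myod1 were Ptms, which encodes parathymosin, Phgdh, the first enzyme of serine synthesis, and Acsl5, an acyl-CoA synthetase, at 0.034, 0.034 and 0.035, with changes of -0.52, -0.54 and -0.56. Nearest to Myf6 were Sntb1, of the dystrophin complex, Cry2, of the circadian clock, and Ddc, which decarboxylates aromatic amino acids, at wider distances of 0.22, 0.23 and 0.25. Their log2 changes were 1.51, 1.6 and 1.58. Cry2 and Ddc, at untreated means of 15.8 and 15.7, were candidates only through their 5AC means of 48.9 and 47.6. Myf6 and these genes were all lowest on untreated replicate 1. With 2 groups of 3 arrays, such a distance mostly reads the size of the group difference.

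**Figure D3:**
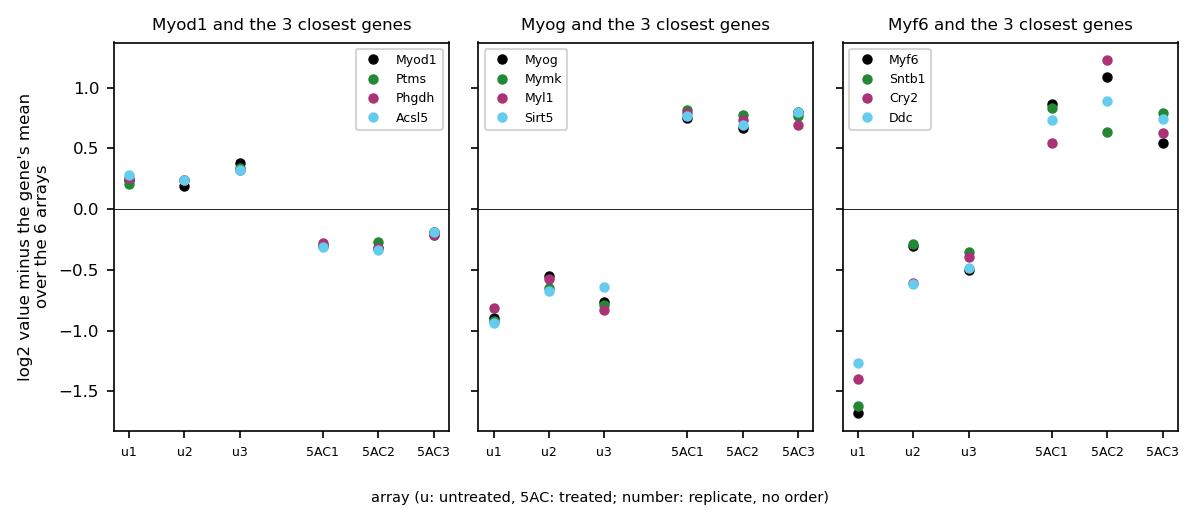
Log2 value minus the gene's own mean over the 6 arrays, for Myod1, Myog and Myf6 (black) and the 3 genes closest to each (colours); replicate numbers have no order. The points of Mymk, Myl1 and Sirt5 lie close to those of Myog, at root-mean-square distances from it of 0.067 to 0.073. Those around Myf6 scatter more, at 0.22 to 0.25.

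Genes that act with these factors were read from lists, with 1 probe set a gene, the one with the highest mean. Over all 18193 genes 11.6% were higher, 10.8% lower and 22.4% either, and the median log2 change was 0.01. The 3 E proteins, the partners with which MyoD-family factors bind DNA, had 0 higher and 0 lower in limma, and 0 higher and 2 lower at an unadjusted p under 0.05, where 19.8% of all genes were higher and 17.3% lower. Tcf4 went from 496 to 397, Tcf3 from 212 to 182 and Tcf12 from 837 to 901.

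Proteins that hold back the MyoD family went both ways. Of 19 measured, 3 were lower and 2 higher, beside 10.8% and 11.6% of all genes, with a median log2 change of 0.03. Msc, or musculin, which competes for E-boxes, fell from 171 ± 7.53 to 52.0 ± 8.61 (SD, n = 3 each; log2 change -1.71), the Notch target Hes1 by 0.78 and Mdfic by 0.41 on the log2 scale. Id1, which takes up E proteins, and Twist2 rose by 0.33 and 0.40, and both calls were lost with median centring and when any 1 array was left out. Id2, Id3 and Id4 had changes of -0.16, 0.03 and -0.11 and did not pass.

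Upstream of the MyoD family, 2 of 17 progenitor factors were higher and 2 lower, beside 11.6% and 10.8% of all genes. Their median log2 change was 0.07. The homeodomain factor Six4 fell from 232 to 134 and its cofactor Eya1 from 214 to 114, while Eya4 rose from 411 to 642 and Eya3 from 169 to 239. Without 5AC replicate 1, 2 or 3 only 1 of the 17 was higher, and with the mean of a gene's probe sets neither Eya3 nor Eya4 passed. Pax3 and Pax7, which precede Myod1 in development, were below the median of all probe sets in both groups, at 15 and 15 and at 13 and 5.

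Among 29 kinases, phosphatases, corepressors and partners that act on MEF2, 2 were higher and 4 lower, beside 11.6% and 10.8% of all genes. Their median log2 change was -0.02. The class IIa histone deacetylases, which bind MEF2 and silence its targets, included Hdac5, from 177 ± 10.1 to 109 ± 5.52 (SD, n = 3 each; log2 change -0.69), and the dim Hdac9 (-0.79, adjusted p = 0.0498, or -0.43 with 16 added, adjusted p = 0.0262). Hdac4 and Hdac7 did not pass, at 0.16 and -0.13. The kinase Map2k6, upstream of p38, had a change of -0.94. The calcineurin subunit Ppp3ca rose by 0.77 and its paralogue Ppp3cb fell by 0.45, and Nfatc1, which calcineurin activates, rose by 0.80. With any single array left out 2 of these genes were lower and 1 to 2 higher.

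Of 26 coactivators and chromatin factors 6 were higher and 2 lower, beside 11.6% and 10.8% of all genes, with a median of 0.14. The acetyltransferase gene Crebbp rose by 0.63, the arginine methyltransferase Prmt5 by 0.55 and the remodelling ATPase Smarca2 by 1.29 (0.83 with 16 added). Kat2b, or PCAF, which acetylates MyoD, fell by 0.45 and Smarcd3, a MyoD-binding subunit of the SWI/SNF complex, by 0.33. With any single array left out 2 to 4 of these genes were higher and 0 to 1 lower.

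Known target genes of the MyoD family and MEF2 numbered 59, of which 33 were higher, 4 lower and 22 not called. Among all genes 11.6% were higher and 10.8% lower. Their median log2 change was 1.04, or 0.78 with 16 added, beside 0.01 for all genes, and 27 to 31 were higher with any 1 array left out. Sarcomere genes are a large part of this list, which was chosen with earlier results of these data known. Lmod2, which nucleates actin filaments, rose by 3.24 (1.90 with 16 added), Klhl41, which stabilises thin filaments, from 93.8 ± 10.2 to 600 ± 2.77 (SD, n = 3 each), and myoglobin, Mb, by 2.58 (1.42 with 16 added). The fusion micropeptide gene Mymx rose by 2.43 and the cell cycle inhibitor gene Cdkn1a by 0.91; these were singled out after their values were seen.

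The 4 that fell were Chrnb1 and Chrna1, subunits of the muscle acetylcholine receptor, by 0.93 and 0.45, Cdh15, the myoblast cadherin, by 0.52, and Celf2, a splicing regulator, by 0.41. Without untreated replicate 1, 2 or 3 or 5AC replicate 1 only 2 were lower. The fetal receptor subunit gene Chrng, named after its values were seen, rose by 1.74, and Chrnd did not pass, at -0.10. Among 22 not past the threshold were desmin, Des (-0.23), muscle creatine kinase, Ckm (0.60), and the early-response MEF2 target Nr4a1 (0.36). The targets therefore did not move as one.

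**Figure D4:**
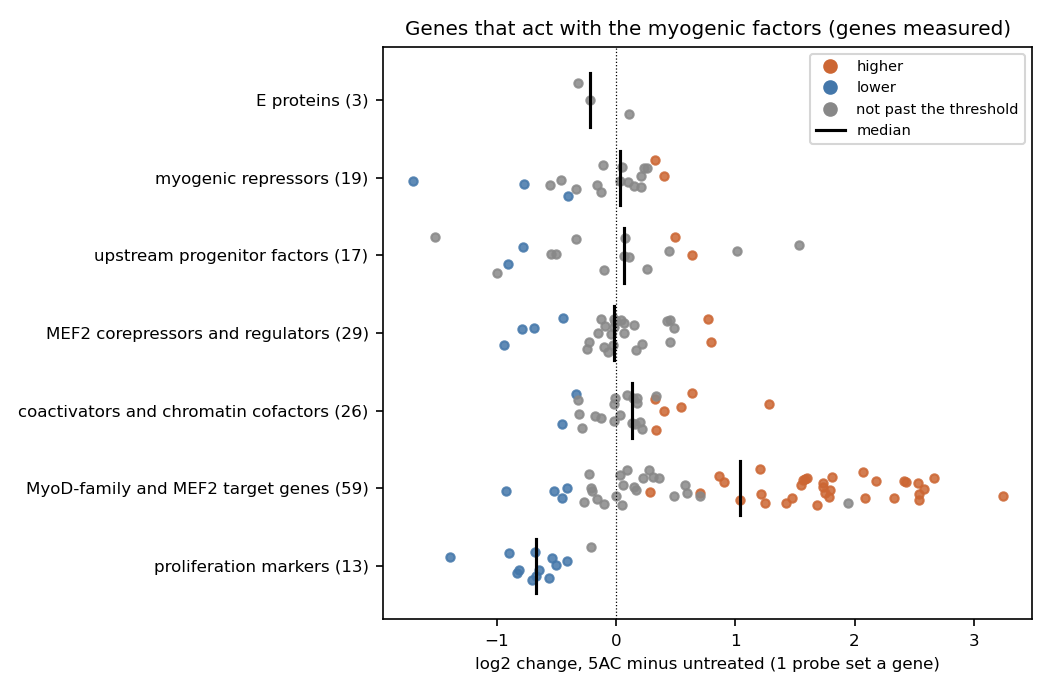
Log2 change, 5AC minus untreated, of each gene in 6 lists of genes that act with the MyoD family and MEF2 and in a list of proliferation markers; orange is higher, blue lower and grey not past the threshold, and a black bar marks the list's median. Target genes lie mostly to the right, with a median of 1.04, and proliferation markers to the left at -0.67. The medians of the other lists run from -0.22 for the E proteins to 0.14 for the coactivators.

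Genes of dividing cells were read as well. Of 13 proliferation markers 12 were lower and 0 higher in limma, beside 10.8% and 11.6% of all genes. At an unadjusted p under 0.05, 13 were lower and 0 higher, beside 17.3% and 19.8% of all genes. Ccnb2 was at -1.39, Aurkb at -0.90 and Birc5 at -0.83. Summed over the 13 markers the intensity was 18170 to 18771 untreated and 11569 to 12803 in 5AC. The part of these markers in the Myog and Myod1 differences was not tested.

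The arrays were alike in level, with median intensities of 20.3 to 21.0, and log2 values correlated at 0.965 to 0.971 within groups and 0.949 to 0.954 between them. Of 10 myoblast markers, 8 were above the median of all probe sets in both groups, Pax7 and Pax3 being the exceptions, and 5 were lower in 5AC: Itga7 (-1.20), Vcam1 (-1.03), and Myod1, Msc and Cdh15, already given above. Myod1 and Myf5 belong to this list as well, so its count is not separate from theirs. Beside the marker counts given here, 10.8% of all genes were lower and 11.6% higher. Summed over 10 fibroblast markers the intensity was 7822 to 7994 untreated and 3226 to 3581 in 5AC, with 4 genes lower, Col1a2, Col3a1 and Pdpn the furthest (-1.49, -1.24 and -1.10), and Dcn higher (0.93). For 11 neuronal markers the sum was 1971 to 2041 and 769 to 823. Gap43, Stmn2 and Tubb3 were lower (-2.56, -1.55 and -1.22) and 8 did not pass. For 10 epithelial markers it was 218 to 250.4 and 3092 to 3405. Krt8, Krt18 and Krt14 were higher (6.89, 6.47 and 2.14). Their 5AC means of 1991, 711 and 347 made up most of the treated sum. The other 7 did not pass, and Cdh1 was below the median in both groups. For 9 leukocyte markers it was 172 to 193 and 223 to 238. Of these 9, Fcer1g alone was higher (2.82, from a mean of 5.93 to 47.8), a count near the share of all genes. The other 8 did not pass, and Ptprc was below the median in both groups. No marker in these lists was at or below 0 on all arrays, and the part of these genes in the results above was not tested.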

How the data were processed

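RNA was measured on 6 Affymetrix mouse arrays, 3 untreated and 3 with 5AC, grouped by the sample labels. The values are linear intensity per probe set, already processed when the authors deposited them. The submitters' processing notes list GCOS 1.4 and R 2.4.1 without saying what each did, and how probes were summarized and normalized is not given in the sources used here. Values below 0 (2.42% to 2.60% of each array, 0 of the members' values) were set to 0 and 1 was added before log2. After leaving out 64 control probe sets, 45037 were fitted with limma 3.58.1 in R 4.3.3 (lmFit, eBayes, two-sided), with Benjamini-Hochberg adjustment over all and a threshold of 0.05. The procedure was tested on simulated data. Only probe sets with 1 symbol (34945) were named.

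The members and the 12 lists were chosen with earlier results of these data known. Of 218 listed genes 210 were measured. The rule for named genes took the members, up to 3 called genes per list and direction, and the 3 genes closest to each called member; other genes named, among them all those of the lists that did not pass, were chosen after their values were seen. The deviations of same-numbered arrays correlated at -0.059, 0.030 and 0.013, which shows no pairing by replicate number but cannot exclude one. The number of arrays limits the precision. Alternatives tried: a replicate block, median centring, quantile normalization, 16 added before the log, brighter probe sets only, an intensity trend, array weights, 1 probe set a gene, the mean of a gene's probe sets, and leaving out each array.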

Additional observations from a re-analysis of the deposited data

How the results depend on the processing

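Myog was called higher in each alternative run other than the replicate block. Whether same-numbered arrays were paired is not known, and with 6 arrays the block leaves less data to estimate the spread. Under the replicate block limma called 0 of all probe sets higher and 0 lower, and 0 and 0 members. Of the 6 lists together it called 0 and 0 genes. In that run 12060 probe sets, 4 members and 74 of 153 list genes had an unadjusted p under 0.05. The adjusted p of Myog was 0.0548 and of Myod1 0.0711. As reported, 3671 probe sets were higher and 3942 lower, and 45 and 15 of the list genes. With an intensity trend 5 members were higher, Mef2a gaining a pair of calls, and 24 list genes lower. With brighter probe sets only, 26 list genes were lower. With 1 probe set a gene, 2517 of fewer features were lower. With single arrays left out, members higher numbered 1 to 2 and lower 0 to 1, all probe sets 1681 to 2859 higher and 2058 to 2592 lower, and list genes 31 to 38 higher and 8 to 10 lower. The sign of 3 uncalled probe sets turned when an array was left out: Mef2c 1421027_a_at ran from -0.0010 to 0.44, Mef2c 1424852_at from -0.18 to 0.081 and Mef2a 1425426_a_at from -0.26 to 0.21. Low levels, as for Mef2b, Mef2c and untreated Myf6, limit what can be read. Of the 5 Mef2c probe sets, 3 had both group means above the median of all probe sets. No background level was measured and detection calls were not used here. Where not stated, the cause was not tested.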
